A study of Mus musculus with 6 samples.

Results

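Cytosolic ribosomal protein genes were taken from a table of RNA-seq counts as the protein-coding rows whose symbol begins with Rpl or Rps and a number, together with Rplp0, Rplp1, Rplp2 and Rpsa, and without S6 kinases and rows named as pseudogenes. The rule found 88 of 33274 gene rows, of which 53 carry large subunit names and 34 small subunit names. The remaining match, Rps19bp1, encodes a binding partner of a ribosomal protein rather than a subunit. Among the 87 names, 77 are core subunit names and 10 are paralogs or retrogenes. Another 3 symbols that match by name, Rps4l, Rps3a2 and Rps3a3, were listed as pseudogenes by the authors and are no members. Fau and Rack1, which encode ribosomal proteins under other names, fall outside the rule.

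Cerebral cortex was taken at 6 weeks of age from wild-type female mice of the outbred ICR stock. They were F2 animals that had never been dosed. Their grandsires had been injected under the skin for 21 days, from 6 weeks of age, with methylphenidate at 15 mg/kg, a blocker of dopamine and noradrenaline reuptake, or with saline at 10 mL/kg. Untreated females were mated with these males and, in the next generation, with 1 son from each litter. Each lineage had 3 libraries, and nothing in the labels ties animals to litters or grandsires. The p-values therefore cover the spread among these 6 samples and no wider one.

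The cytosolic ribosome has a small subunit, which binds the mRNA, and a large subunit, which joins amino acids into protein. Each core protein is present once per ribosome, except the stalk proteins P1 and P2, and cells make the set in step, in part because the transcripts begin with a run of pyrimidines that places their translation under mTORC1. Processed copies of these genes are scattered over mammalian genomes in great number, and some differ from the parent by only a few bases.

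Total counts were 23896752 to 28120640 per library. Between 6.43 and 8.19% of counts came from the mitochondrial genome, with the highest share in methylphenidate replicate 3. Markers of cortical excitatory neurons, the labelled tissue, were detected in all libraries (8 of 8 markers, summed level 4716 to 5295 CPM, counts scaled to the library's TMM-adjusted total). The 10 striatal projection neuron markers summed to 245.8 to 344.9 CPM for the saline lineage and to 613.5, 339.1 and 818.3 CPM in methylphenidate replicates 1 to 3. At an unadjusted edgeR p under 0.05, 9 of these 10 were higher in the methylphenidate lineage, as were 3 of 5 markers of oligodendrocyte precursors and 2 of 6 of microglia. At the same level 4 of the 8 cortical markers were lower, and of 7 vascular and meningeal markers 1 was higher and 1 lower. None passed the adjusted threshold. Choroid plexus markers, 5 in all, ranged from 42.6 to 638.4 CPM for the saline lineage and from 21.5 to 491.0 CPM in the methylphenidate lineage. In tissue, fewer cells of a type and less RNA per cell cannot be told apart.

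The pyrimidine run can be read at the annotated start of some member genes. The windows below hold 10 bases before the RefSeq start and 20 from it (GRCm38.p6), 5′ to 3′, with the C-led pyrimidine run in capitals. Rps6 (chr4:86857348-86857377, minus strand) encodes the S6 kinase substrate, Rplp2 (chr7:141447641-141447670, plus strand) a stalk protein, and Rps10 (chr17:27635225-27635254, minus strand) a protein of the small subunit head. Rps27 (chr3:90213629-90213658, minus strand) and its retrogene Rps27rt (chr9:114982720-114982749, minus strand) are set side by side because methylphenidate replicate 3 was the highest library for the one and the lowest for the other. Rpl26 (chr11:68901556-68901585, plus strand) is shown as a RefSeq start without such a run. Its start in another annotation, GENCODE M21, lies downstream at 68901583, near the end of the window, and the bases beyond the window are not shown.
Rps6: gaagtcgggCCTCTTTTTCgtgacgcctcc
Rplp2: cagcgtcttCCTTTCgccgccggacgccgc
Rps10: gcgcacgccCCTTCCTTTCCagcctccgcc
Rps27: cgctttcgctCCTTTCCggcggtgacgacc
Rps27rt: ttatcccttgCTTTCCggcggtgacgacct
Rpl26: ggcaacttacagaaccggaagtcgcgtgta

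Of the 88 members, 67 had a RefSeq promoter window of 300 bases. A run of at least 5 pyrimidines led by C within 1 base before to 2 bases after the first transcribed base was found in 24 of 67, or 35.8%, against 9.42% of 27025 genes with a window. CTTTC on either strand was present for 80.6% of these members and 60.6% of all these genes, and CTTTCC, which contains it, for 50.7% and 29.3%. A gene with several windows was counted once, as a match if any of its windows held the motif. CCGGAAG, the core bound by ETS factors, was present in 37.3% against 9.93%. AAGATGGC, which holds a YY1 core, was present in 8.96% against 3.19%, and TATAAA in 11.9% against 15.7%. These matches describe letters in annotated windows, and several annotated starts may lie upstream of the starts used in cortex.

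The lineage comparison asked whether cortical expression of these genes in grandoffspring differed with the grandsire's treatment. After the filter on low counts 85 members were tested, and Rpl3l, Rpl32l and Rps23rg1 were not. No member passed an edgeR adjusted p of 0.05, against 0.0273% of the 18327 genes tested. At an unadjusted edgeR p under 0.05, 5 members were higher in the methylphenidate lineage (5.88%, against 4.2% of all genes) and 2 were lower (2.35%, against 3.31%). DESeq2 called 1 of 88 members, Rplp1 (1.14%), against 149 of the 22937 genes it gave an adjusted p (0.65%). At an unadjusted DESeq2 p under 0.05 there were 6 members (6.82%, against 4.09% of all genes). The median log2 fold change was 0.04 over members and 0.00 over all genes tested. Of the members 59 were above 0 and 26 below, against 9212 and 9115 of all genes tested. The median was 0.04 over 51 large subunit names and 0.05 over 33 small subunit names. Without methylphenidate replicate 3 the members' median was -0.03.

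**Figure D1:**
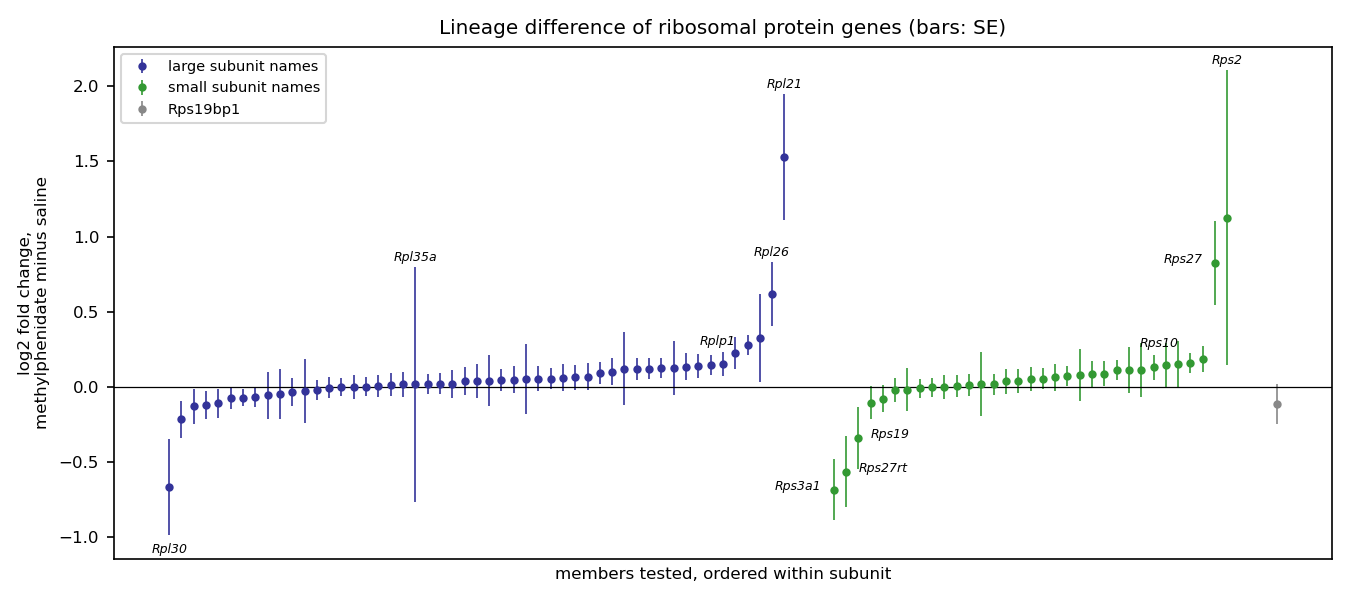
Log2 fold change, methylphenidate minus saline, of the 85 tested members, ordered within large subunit names, small subunit names and Rps19bp1; bars are standard errors. Most members lie near 0 with short bars, and the members farthest from 0 have long bars.

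The stalk proteins P0, P1 and P2, which recruit translation factors to the large subunit, had the smallest p of the members in Rplp1. Rplp1 (ENSMUSG00000007892, chromosome 9) had 295.3, 301.7 and 290.8 CPM in saline-lineage libraries and 349.9, 336.6 and 389.0 CPM in methylphenidate-lineage libraries. The groups did not overlap, and the saline libraries lay within a few percent of each other. The mean was 295.9 ± 5.48 CPM for the saline lineage and 358.5 ± 27.2 CPM for the methylphenidate lineage (SD, n = 3), a log2 difference of 0.28 (SE 0.07, edgeR adjusted p = 0.309). DESeq2 gave a log2 difference of 0.27 (SE 0.07, DESeq2 adjusted p = 0.0436). Over all alternatives run, its log2 difference was 0.21 to 0.32 and its adjusted p 0.0436 to 0.777, the highest in edgeR without methylphenidate replicate 3. Per kilobase of transcript, Rplp1 also had the highest mean level of all members, at 655.7 CPM per kilobase.

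Rplp2 had 81.4, 77.0 and 85.7 CPM in saline-lineage libraries against 93.2, 87.3 and 89.5 CPM, again without overlap (log2 difference 0.15, SE 0.07, edgeR adjusted p = 0.674). Rplp0, the scaffold on which P1 and P2 sit, had 138.4, 143.4 and 129.1 CPM against 153.1, 140.6 and 155.1 CPM, and its groups overlapped (0.13, SE 0.07, edgeR adjusted p = 0.737). None of the 3 stalk genes passed the edgeR threshold. All 3 differences were above 0, as were those of 57 of 77 core members tested. With the near-identical copy rows described below added, Rplp1 had 0.26 (SE 0.07), Rplp2 0.12 (SE 0.07) and Rplp0 0.06 (SE 0.06).

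In the small subunit, Rps10 had 72.7, 72.4 and 68.3 CPM in saline-lineage libraries and 79.6, 76.7 and 81.9 CPM in methylphenidate-lineage libraries. These groups did not overlap, and the log2 difference was 0.16 (SE 0.07, edgeR adjusted p = 0.636). Rpsa, also known as the laminin receptor precursor, had 287.6, 269.3 and 259.5 CPM against 282.1, 297.6 and 348.2 CPM, with overlapping groups and the highest value in methylphenidate replicate 3 (0.18, SE 0.09, edgeR adjusted p = 0.672). Groups did not overlap upward in 5 members (Rplp1, Rplp2, Rps10, Rps9 and Rpl22l1), or 5.88% against 6.97% of all genes tested, and downward in 2 (Rps3a1 and Rps27rt), or 2.35% against 6.51%.

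**Figure D2:**
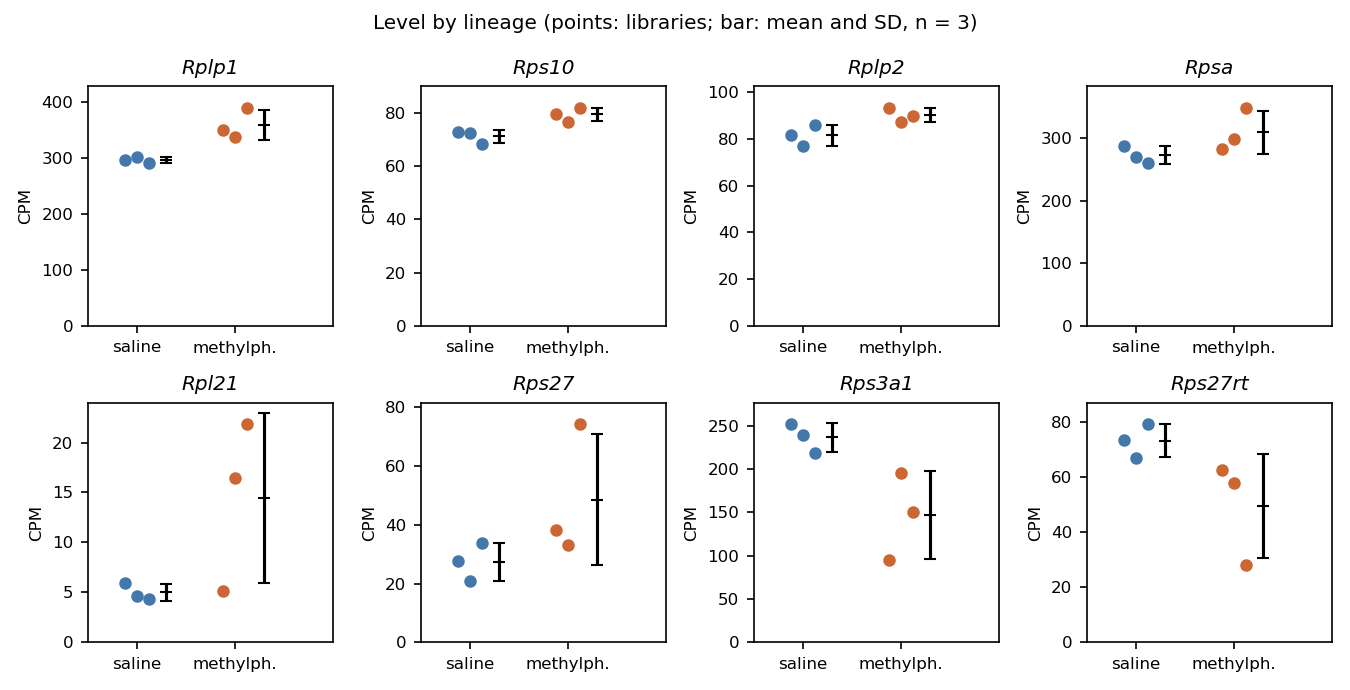
CPM of 8 members by lineage; points are libraries and bars the mean with SD (n = 3 each), and every axis starts at 0. Rplp1, Rps10 and Rplp2 vary little within a lineage, whereas Rpl21, Rps27, Rps3a1 and Rps27rt vary widely within the methylphenidate lineage.

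Rps6, the substrate by which S6 kinase activity is commonly read, had a log2 difference of 0.02 (SE 0.07), from 168.2 to 192.7 CPM over the 6 libraries. Rpl10, a late-joining protein of the large subunit encoded on the X chromosome, had 0.06 (SE 0.07), and the X-linked Rps4x had -0.01 (SE 0.06). Rps27a, whose protein is made fused to ubiquitin, had -0.02 (SE 0.14). Among the members of highest mean level, Rpl13a ranged from 339.0 to 411.2 CPM, Rpl4 from 346.3 to 393.1 CPM, Rps3 from 216.9 to 274.8 CPM and Rps14 from 187.4 to 224.6 CPM, and the groups overlapped in each. Outside the name rule, Fau, made as a fusion to a ubiquitin-like protein, had 140.7, 140.7 and 138.8 CPM against 157.5, 147.6 and 163.2 CPM, without overlap (0.16, SE 0.06, edgeR adjusted p = 0.617). Rack1, a scaffold on the small subunit head, had 0.09 (SE 0.06).

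Several members varied between libraries far more than the rest. The coefficient of variation (CV, SD over the mean of the 6 libraries) was 94.5% for Rps2, 76.9% for Rpl21, 73.3% for Rpl35a, 49.2% for Rps27 and 42.6% for Rpl30. For genes tested at a mean of 10 CPM or more the median CV was 8.27%, and 2.82% of them exceeded 25%. Rps2, which lines the mRNA entry channel, had 2446, 356 and 127 counts in saline-lineage libraries and 225, 2979 and 3192 counts in methylphenidate-lineage libraries. Rpl35a had 194, 1182 and 2354 counts against 278, 2439 and 1337. Neither set followed the lineages, as both groups held low and high libraries.

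In several of these families, other rows of the table with near-identical sequence were high in the libraries where the member was low. Copies were found by aligning each member's coding sequence (GENCODE M21, GRCm38) to the transcripts of all rows, at 95% identity or more over at least 50% of the coding length. At least 1 such row existed for 78 of 84 families of members, and 538 rows outside the members were copies. Pieces of 60 coding bases are shown for 3 members, each with 1 of its copies, with differing letters in capitals. A pair with identical coding sequence follows. The counts of Gm10243, the copy shown for Rpl35a, are not given here. With all its copies summed, Rpl35a had 92.1 to 111.1 CPM, with a CV of 7.9%. Rpl26 lies at chr11:68901583-68906989 (plus strand) and Gm15772 at chr5:3236431-3236868 (plus strand). Rpl35a lies at chr16:33056453-33060189 (plus strand) and Gm10243 at chr6:48523518-48523850 (plus strand). Rps3a1 lies at chr3:86137940-86142702 (minus strand) and Rps3a2 at chr14:88123017-88123808 (minus strand). The last pair is Rps27 at chr3:90212522-90213651 and Rps27rt at chr9:114982366-114982739, both on the minus strand. The members' pieces start at coding bases 147, 126, 186 and 97, all coordinates are GRCm38, and the 3 copies are annotated as processed pseudogenes.
Rpl26: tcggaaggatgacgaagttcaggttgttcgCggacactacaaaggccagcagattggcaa
Gm15772: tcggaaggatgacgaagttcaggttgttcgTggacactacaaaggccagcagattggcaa
Rpl35a: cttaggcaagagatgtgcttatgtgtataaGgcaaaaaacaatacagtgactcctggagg
Gm10243: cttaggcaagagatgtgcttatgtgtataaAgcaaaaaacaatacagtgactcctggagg
Rps3a1: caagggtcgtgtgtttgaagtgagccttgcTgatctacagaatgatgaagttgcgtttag
Rps3a2: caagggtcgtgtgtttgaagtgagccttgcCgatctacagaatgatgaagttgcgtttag
Rps27: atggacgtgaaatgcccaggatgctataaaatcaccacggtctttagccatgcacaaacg
Rps27rt: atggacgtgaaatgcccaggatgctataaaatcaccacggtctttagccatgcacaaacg

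Rpl26 and Gm15772 differ at 2 of 435 coding bases. Rpl26 had 2400, 2253 and 4103 counts in saline-lineage libraries and 4337, 4727 and 4586 in methylphenidate-lineage libraries, while Gm15772 had 2610, 2506 and 167 counts against 211, 170 and 193. Saline replicates 1 and 2 were thus low for the gene and high for the copy, and the other 4 libraries the reverse. Summed with its 4 copy rows, the Rpl26 family had 191.4, 187.3 and 178.0 CPM against 189.8, 172.9 and 197.8 CPM, and its CV went from 30.8% to 4.9%. The log2 difference between lineages was 0.61 (SE 0.21) for the row and 0.01 (SE 0.07) for the sum. Without saline replicate 3 the row alone was called (0.99, SE 0.08, edgeR adjusted p = 0.0085), and over all alternatives the adjusted p was 0.0085 to 0.987, the highest for the sum.

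Rps3a1, which had the smallest p among members lower in the methylphenidate lineage, had 251.4, 238.9 and 218.7 CPM against 94.8, 195.7 and 150.6 CPM, without overlap (-0.68, SE 0.20, edgeR adjusted p = 0.480). Without methylphenidate replicate 1 the difference was -0.45 (SE 0.12). Rps3a2, with 4 differing coding bases, had 55, 45 and 749 counts in saline-lineage libraries and 2250, 777 and 1371 in methylphenidate-lineage libraries. The family sum had 254.7, 242.6 and 255.0 CPM against 234.0, 227.6 and 254.5 CPM, and its groups overlapped (-0.07, SE 0.07). Rps27 had 27.6, 20.9 and 33.7 CPM against 38.2, 33.2 and 74.1 CPM, and Rps27rt 73.6, 66.9 and 79.1 CPM against 62.7, 57.9 and 28.0 CPM. The library highest for Rps27, methylphenidate replicate 3, was the lowest for Rps27rt. Their sum with other copies had a log2 difference of -0.04 (SE 0.09), whereas Rps27 alone had 0.82 (SE 0.28) and Rps27rt alone -0.56 (SE 0.24). Without methylphenidate replicate 3 these were 0.38 (SE 0.18) and -0.28 (SE 0.10). In the saline lineage both genes were lowest in replicate 2 and highest in replicate 3.

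Rpl21 had 157, 119 and 106 counts in saline-lineage libraries and 125, 467 and 530 in methylphenidate-lineage libraries, with methylphenidate replicate 1 among the saline values. Its log2 difference was 1.53 (SE 0.42, edgeR adjusted p = 0.389), and without methylphenidate replicate 1 it was 1.93 (SE 0.20, edgeR adjusted p = 0.0115), in a range of 0.0115 to 0.997 over all alternatives, the highest for the sum. Its own row held 3.78% of the counts of a family of 55 copy rows. The family ranged from 239.7 to 280.3 CPM, with a log2 difference of 0.00 (SE 0.07). Rpl29 held 1.28% of its family and Rps18 7.03%, so these rows stood low among core members while their families did not. For Rpl30 the log2 difference was -0.67 (SE 0.32) for the row and -0.06 (SE 0.10) for the sum, and for Rps19 it was -0.34 (SE 0.21) and 0.13 (SE 0.11). The row of Rpl30 had -0.42 when methylphenidate replicate 2 was left out and -1.09 when methylphenidate replicate 3 was. The row of Rps19 had -0.09 without saline replicate 3 and -0.55 without saline replicate 2.

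**Figure D3:**
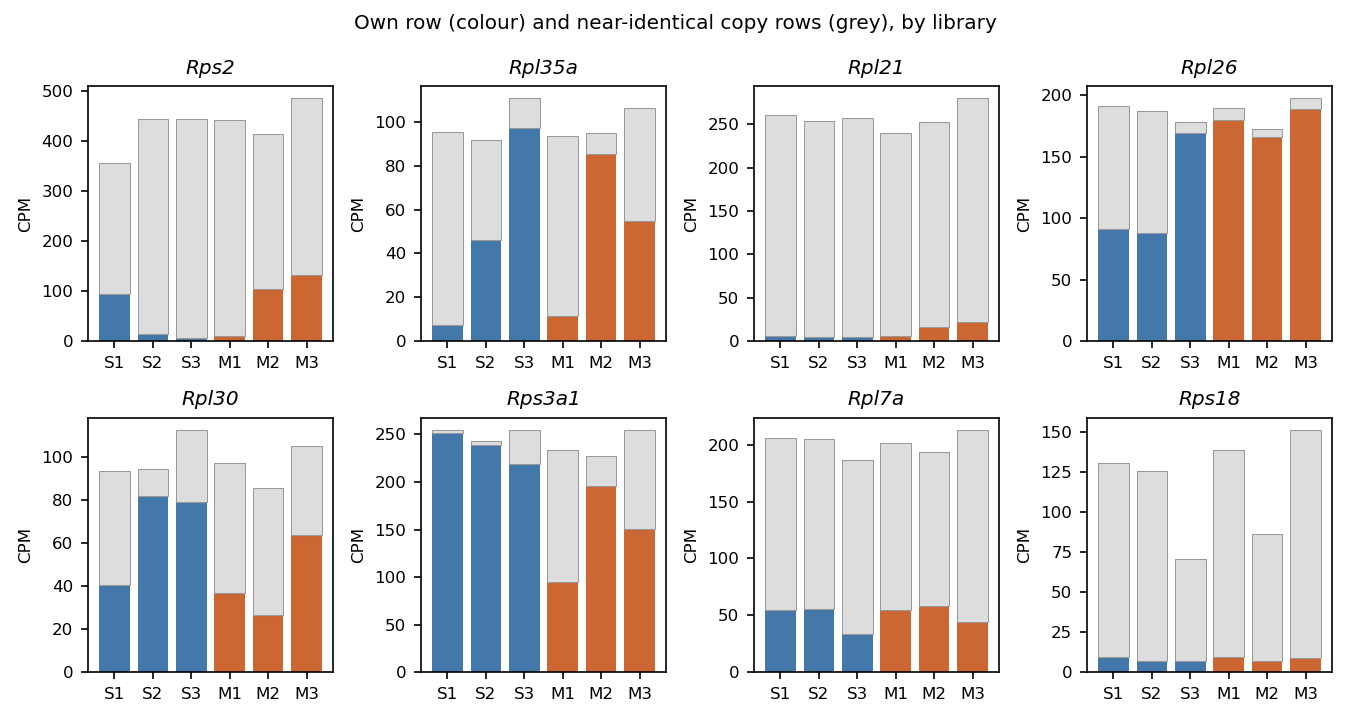
CPM in each library (S1 to S3 saline, M1 to M3 methylphenidate) of 8 members' own rows in colour with their near-identical copy rows stacked in grey. The coloured part changes from library to library in Rps2, Rpl35a, Rpl26, Rpl30 and Rps3a1 while the total stays closer to level, and Rps18 is the exception, with a total of 70.7 to 151.4 CPM.

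Own rows and family sums were then compared across the set. A sum over several rows can have a lower CV even where counts do not trade places. In the Rpl21 family, the copy Rpl21-ps15 was high where the gene was, at 643, 635 and 598 counts against 533, 989 and 953. Gm10163 was lowest there, at 1371, 1283 and 1268 counts against 1186, 1106 and 1083. Of 81 members at a mean of 1 CPM or more with a copy row or a near-identical fellow member, 18 had a CV over 15% in their own row and 3 in the family sum. Over 25% there were 10 and 1. The median CV was 8.59% for own rows and 7.1% for sums, and the sum had the lower CV for 62 of 81. The exception over 25% was Rps18, whose copy Rps18-ps6 had 1633, 1535 and 0 counts in saline-lineage libraries and 1607, 712 and 1817 in methylphenidate-lineage libraries. Some copies had nearly equal counts in each library, as Gm10163 and Gm10240 did among those of Rpl21, so a sum can hold the same read more than once. How reads with several matches were counted is not stated by any source used here. The cause of opposite values in some members and their copies was not tested. With the copies summed, a fit added after the data were seen, no family passed the threshold in edgeR. Rplp1 and the family of Rps23rg1 were the only ones at an unadjusted edgeR p under 0.05, in opposite directions. Rplp1 had a log2 difference of 0.26 (SE 0.07, edgeR adjusted p = 0.365). The Rps23rg1 family, at a mean of 1.43 CPM, had -1.52 (SE 0.55, edgeR adjusted p = 0.581).

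**Figure D4:**
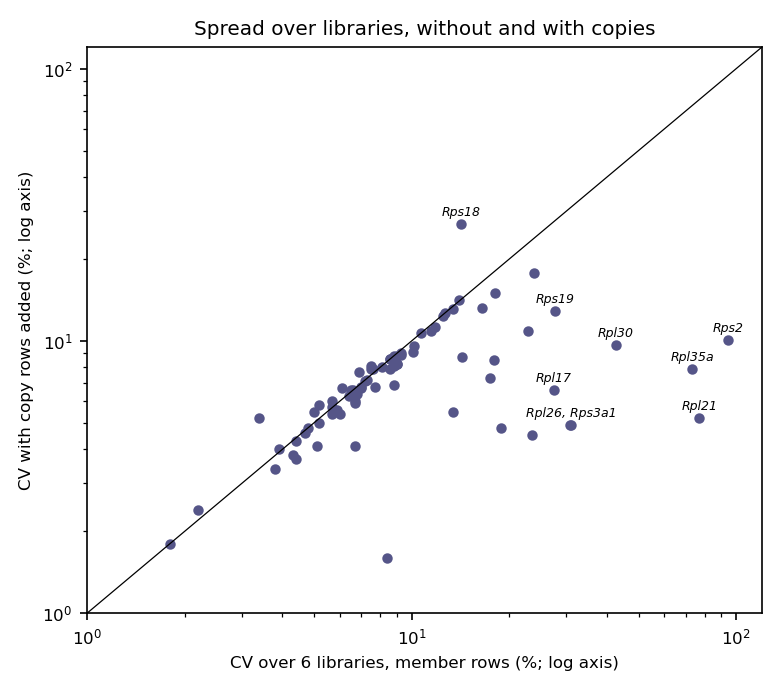
CV over the 6 libraries (percent, log axes) of member rows against the same with near-identical copy rows added; each point is a family at a mean of 1 CPM or more and the line marks equality. Rps2, Rpl21, Rpl35a and Rpl30 lie far below the line, and Rps18 lies above it.

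Paralogs were taken by symbols ending in l or l1, and whether each takes its parent's place in ribosomes was not tested. Among them, Rpl22l1 and Rpl36al had counts of the same order as their parents. Rpl22l1 had 1137, 1138 and 1056 counts in saline-lineage libraries and 1080, 1281 and 1117 in methylphenidate-lineage libraries. It made up 36.0 ± 0.74% of the pair with Rpl22 for the saline lineage and 36.7 ± 0.65% for the methylphenidate lineage (SD, n = 3). Rpl22 itself had the lowest CV of the named members, 1.8%, with 76.1 to 79.6 CPM. The CPM of Rpl22l1 did not overlap between lineages, with a log2 difference of 0.05 (SE 0.07, edgeR adjusted p = 0.928). Rpl36al, an autosomal gene, made up 45.7 ± 2.41% of the pair with the X-linked Rpl36a for the saline lineage and 42.5 ± 1.2% for the methylphenidate lineage.

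Rpl7l1 made up 13.1 to 17.4% of the pair with Rpl7, highest in saline replicate 3, and its log2 difference was -0.22 (SE 0.12, edgeR adjusted p = 0.745), or -0.08 (SE 0.10) without saline replicate 3. Rps27l, a p53-responsive paralog, had 190 to 303 counts per library. Because the coding sequences of Rps27 and Rps27rt are identical, Rps27l was set against both together, and it made up 8.22 ± 0.58% for the saline lineage and 8.87 ± 1.67% for the methylphenidate lineage. Rpl3l, the form known from heart and skeletal muscle, had 10, 6 and 0 counts against 11, 0 and 3. Rpl32l had 2 to 5 counts per library and Rps23rg1 0 to 7. Rpl6l made up 4.67 to 6.36% of the pair with Rpl6, with which it shares near-identical sequence.

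Members as a whole took 0.995, 0.977 and 1.03% of the counts in saline-lineage libraries and 1.00, 0.988 and 1.11% in methylphenidate-lineage libraries. The saline libraries and methylphenidate replicates 1 and 2 overlapped, and methylphenidate replicate 3 stood above all others. The mean was 1.00 ± 0.03% for the saline lineage and 1.03 ± 0.07% for the methylphenidate lineage. Large subunit counts were 1.60, 1.63 and 1.64 times the small subunit counts in saline-lineage libraries and 1.70, 1.67 and 1.64 times in methylphenidate-lineage libraries. With near-identical copies added, these ratios were 1.71, 1.66 and 1.66 against 1.65, 1.71 and 1.64, and the difference of means changed sign, from 0.044 to -0.012. Per kilobase of transcript and with copies included, the median level was 197.9 CPM per kilobase over 46 core large subunit names and 188.8 over 31 small subunit names.

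Levels of the members were correlated with each other over the libraries. The median correlation of log2 CPM between pairs of members was 0.37 over the 6 libraries, against -0.00 between pairs of all genes tested and 0.05 between pairs of 78 mitochondrial ribosomal protein genes. It was 0.33 within the large subunit, 0.42 within the small subunit and 0.39 between them. With copies summed it was 0.51. All points share the same 6 libraries, so these values are descriptions. Rpl11 (r = 0.94) and Rpl18 (0.94) were among the members that followed the mean of the others most closely. Rps27rt (-0.85), Rpl7a (-0.49) and Rpl37a (-0.39) followed it least in their own rows. With copies summed, the joint family of Rps27 and Rps27rt had 0.61 with the mean of the other families, Rpl7a 0.45 and Rpl37a 0.41. The only 2 families below 0 were then Rps27l (-0.42) and Rpl10a (-0.17).

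The correlation rested largely on methylphenidate replicate 3, which was the highest library for 50 of 85 members and the lowest for 2. Relative to each member's own mean, the median log2 CPM was 0.00, -0.07 and 0.00 in saline-lineage libraries and -0.02, -0.06 and 0.13 in methylphenidate-lineage libraries. Mitochondrial ribosomal protein genes had -0.01 in methylphenidate replicate 3. Without that library the median correlation between members was 0.12. That library also had the highest summed striatal and cortical excitatory markers, the lowest choroid plexus markers and the highest mitochondrial share, given above. Its summed markers were also the highest for microglia (313.3 CPM, against 238.8 to 263.8 CPM in the other libraries) and oligodendrocyte precursors (317.0 CPM, against 228.9 to 301.5 CPM). The vascular and meningeal sum was nearly equal in methylphenidate replicates 3 (260.3 CPM) and 2 (262.2 CPM), with up to 292.3 CPM elsewhere. Of these markers, Cldn5 stood above all saline libraries and Flt1 below them in every methylphenidate-lineage library, and replicate 3 was the extreme one for neither. The part of all these in the members' level was not tested.

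Members were also split by protein length, a split chosen after the values were seen. Relative to each member's mean, the 21 tested members of up to 120 residues had a median log2 CPM of 0.20 in saline replicate 3, against 0.00 for 30 members of over 120 and up to 170 residues and -0.04 for 32 longer ones. In saline replicate 1 the order was the opposite, with -0.07, -0.04 and 0.04, and with copies summed -0.05, 0.01 and 0.03. In methylphenidate replicate 3 the 3 classes had 0.15, 0.14 and 0.13. With copies summed, the short class had 0.17 in saline replicate 3. Other protein-coding genes of up to 120 residues at a mean of 10 CPM or more, 306 in number, had a median of 0.02 in that library.

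**Figure D5:**
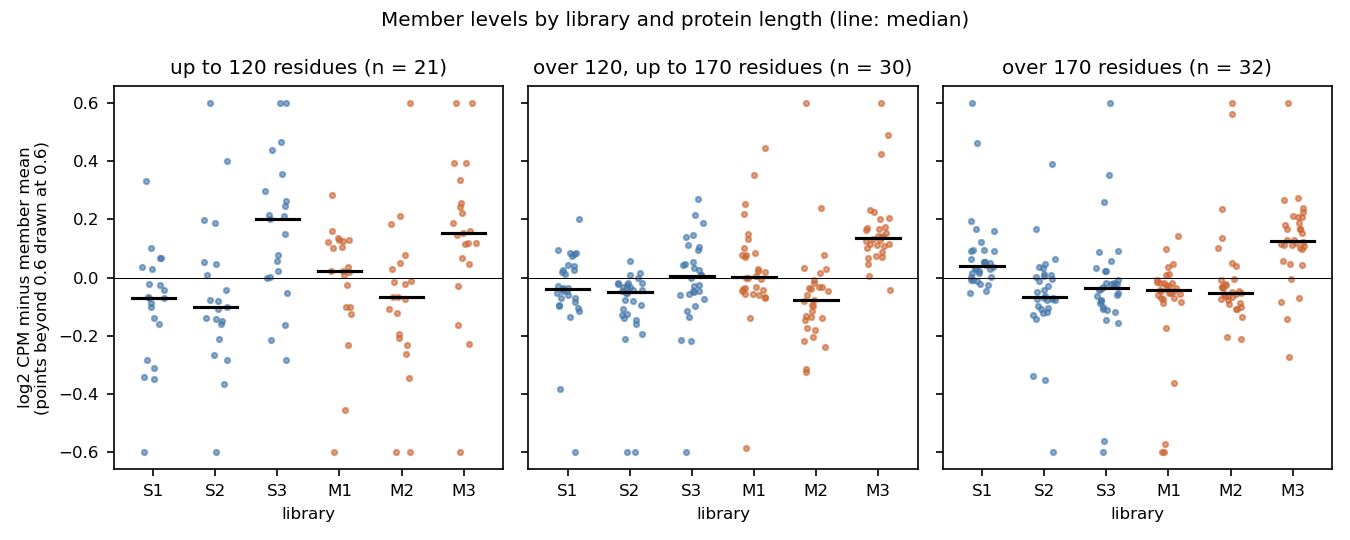
Log2 CPM of each tested member minus its mean over the 6 libraries (S1 to S3 saline, M1 to M3 methylphenidate), in 3 classes of protein length; points are members and lines medians. In M3 all 3 medians lie above 0, between 0.13 and 0.15, and in S3 only the class of up to 120 residues does so clearly, at 0.20.

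Genes around the ribosome were read from the same fit, by lists fixed with earlier results of these data known, and no gene of the following lists passed the threshold. At an unadjusted edgeR p under 0.05, where 4.2% of all genes tested were higher and 3.31% lower, there were 0 of 12 elongation and termination factors, 0 of 37 initiation factors and their inhibitors, 0 of 17 other transcripts with a pyrimidine start, 0 of 15 mTORC1, S6 kinase and LARP genes, 0 of 40 ribosome biogenesis genes and 0 of 7 ribosome rescue genes. Their median log2 fold changes were -0.00, -0.04, -0.02, 0.02, -0.02 and -0.10. The 2 genes of smallest p in each list are given as log2 fold changes. Etf1, a release factor, had -0.18 (SE 0.08) and the elongation factor Eif5a2 -0.13 (SE 0.08). Eif2s1, the regulated subunit of eIF2, had -0.20 (SE 0.09) and Eif3i -0.14 (SE 0.07). Hnrnpa1 had -0.13 (SE 0.07) and Eif3f 0.14 (SE 0.08). Larp1, which binds pyrimidine-start transcripts, had 0.12 (SE 0.06) and Akt1s1, an mTORC1 inhibitor, 0.16 (SE 0.09). Wdr12 and Tsr1, assembly factors, had -0.14 (SE 0.08) and -0.15 (SE 0.09). Nemf, which acts on stalled large subunits, had -0.14 (SE 0.07) and Habp4 -0.11 (SE 0.06). Of 78 mitochondrial ribosomal protein genes 1 was higher and 3 were lower at that level, with Mrpl53 at -1.29 (SE 0.31, edgeR adjusted p = 0.305) and Mrps25 at -0.27 (SE 0.11). Of 87 tested pseudogene rows named for a ribosomal protein gene, 2 were higher and 3 lower at that level. The shares lower in these last 2 lists were near that of all genes tested.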

How the data were processed

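Per the labels' protocols, libraries were directional and made from poly(A) RNA. Per the submitters' processing notes, the build was GRCm39 and the tools were StringTie 2.2.1, HISAT2 2.2.1, fastp 0.23.4 and bcl2fastq 2.19, listed with no role. The authors deposited whole-number counts per gene, not normalized. The annotation, strand setting and treatment of reads with several matches are not stated by any source used here. Rows without a symbol (985) were kept, at no more than 0.175% of a library. The counts (23896752 to 28120640 a library) were fitted in R 4.3.3 with edgeR 4.0.16 (filterByExpr, TMM, quasi-likelihood test, lineage as only term, two-sided, Benjamini-Hochberg over 18327 genes, threshold 0.05). CPM uses TMM library sizes, and log2 CPM a prior count of 2. Alternatives used DESeq2 1.42.0 and limma 3.58.1, other scalings and filters, a replicate block, left-out libraries and, added after the data were seen, copies summed.

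Transcript lengths and copies come from GENCODE M21 on GRCm38, matched by gene identifier (31253 of 33274 rows), using the shortest transcript with the longest coding sequence. Named members were every one past the threshold, the 5 smallest p in each direction, paralogs ending in l or l1 with parents, level and correlation extremes, stalk genes, 5 fixed members and 2 genes for each list around the ribosome. Rps2, Rpl35a, Rps9 and the copies were named after their values were seen. Not every gene under this rule is reported here. Members and lists were chosen with earlier results of these data known. In simulated data for methylphenidate against saline (18213 genes tested), 37.3% of 1.5-fold, 50.7% of 2-fold and 84.8% of 4-fold changes were recovered, and 13 of 128 calls were false. Libraries of a lineage differed by 13.0 to 19.9 times sampling noise, so none was a duplicate.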

Additional observations from a re-analysis of the deposited data

How the results depend on the processing

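The count of all genes past the threshold was 5. It was 10 with total counts only, 3 without a filter, 2 with a replicate block, 149 with DESeq2, and 2 to 26 with a library left out. Members past the threshold were 0, 1 with DESeq2 (Rplp1), and 0 to 1 with a library left out (Rpl26 when saline replicate 3 was dropped, Rpl21 when methylphenidate replicate 1 was). Members at an unadjusted p under 0.05 were 7, 5 to 12 with a library left out and 2 with near-identical copies summed, where families are fewer than rows. With copies added the large to small difference was -0.012 in place of 0.044. The median correlation was 0.51 with copies summed and 0.12 to 0.49 with a library left out. The difference in share, 0.034 percentage points, was -0.0053 to 0.057 with a library left out, negative without methylphenidate replicate 3. With copies summed the log2 difference of Rps27 was -0.037 and that of Rps19 0.134. With a library left out, that of Rpl6l was -0.241 to 0.08 (above 0 without methylphenidate replicate 2), and that of Rps27l -0.031 (without saline replicate 2) to 0.197, with -0.015 when methylphenidate replicate 2 was left out. The cause was not tested where none is given. Replicate numbers are shared between lineages. Same-numbered libraries deviated from their group means with correlations of -0.04, 0.09 and -0.02, and not every library correlated best with its own number. Whether same-numbered libraries share more than a number cannot be told from these values. The replicate block gave 9 members at an unadjusted p under 0.05 in place of 7, and a median of 0.04. With 3 libraries a lineage and a median standard error of 0.09 for members, differences of the size seen in most members were not detectable.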
